A study of Rattus norvegicus with 6 samples.

Results

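The subject is a pair of long non-coding RNA (lncRNA) loci of the Brown Norway (BN) rat, one that overlaps the gene Sox2 and one that lies antisense to Dlx6. The members were all transcripts named Sox2 or Dlx6 in the deposited table, or listed at locus XLOC_034566 or XLOC_048529. They came to 6 of 2455 transcripts with values, 4 at the Sox2 locus and 2 at the Dlx6 locus. RNA had been sequenced from hypothalamus, adrenal gland, cortex, outer medulla, left ventricle and liver of male BN rats, an inbred strain, at 6 weeks of age. No treatment or genetic change is named for any group, and of which organ the cortex was taken is not stated in its label. A low value in cortex is therefore not a statement on cerebral cortex, and a renal tubule transcript is given below. There was 1 sample per tissue, and the table gave 2 value columns for each, called column 1 and column 2 here. Whether the 2 columns of a tissue are separate animals is not stated, and the spread that p-values are measured against may therefore be technical. The column codes of 5 tissues fitted 1 label each. The code B was given to hypothalamus by elimination, and every statement on hypothalamus rests on that match.

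SOX2 is a transcription factor of the HMG-box family that keeps neural stem and progenitor cells undifferentiated. In mouse and human its single-exon gene lies inside a long lncRNA gene, Sox2ot (Sox2 overlapping transcript), which is transcribed in the same direction and is abundant in brain. DLX6 is a homeodomain transcription factor of the developing forebrain, where the Dlx genes direct the formation of GABAergic neurons. In mouse an antisense lncRNA, Dlx6os1 (also called Evf2), arises at the Dlx5 and Dlx6 pair, overlaps an enhancer and binds DLX proteins. The table names neither lncRNA, and which of the deposited transcripts correspond to them was not tested.

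All 4 Sox2 locus transcripts were listed with the same interval, rn5 chromosome 2, 140593626 to 140862826, a span of 269200 bases. Whether these starts count from 0 or 1 is not stated. Each had the class code o, which marks an overlap with exons of a reference transcript other than a shared splice junction, and each had a transcription start identifier of its own. TCONS_00055701 and TCONS_00055702 were 4133 and 4437 bases long. TCONS_00055705 and TCONS_00055713 were 8714 and 8677 bases long. The Dlx6 locus lay on chromosome 4, 32200795 to 32247132, a span of 46337 bases. Of its 2 transcripts, TCONS_00077984 (3449 bases) had the class code x, an exon overlap on the opposite strand of Dlx6. TCONS_00077983 (3980 bases) had no reference gene listed and started at another site. The median length over all transcripts of the table was 1758 bases, shorter than any of the 6. No other locus of the table overlapped either interval, and the nearest listed neighbours were 567.6 kb from the Sox2 locus and 575.9 kb from the Dlx6 locus.

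The RefSeq annotation of a later assembly, GRCr8, holds 1 lncRNA gene that overlaps Sox2 (LOC103691527, with 43 listed transcripts) and 1 that overlaps Dlx6 (LOC100912227, with 2). They are the named lncRNA genes closest in kind to the members, but the assemblies differ, so the deposited transcripts could not be matched to them by position. Their promoter windows, 250 bases before to 50 after a transcription start, are shown in place of the members' own sequences, which were not used here. The first is the most upstream of 12 windows listed for LOC103691527 (GRCr8 chr2:118895943-118896242, plus strand), the second that of LOC100912227 (chr4:35959410-35959709, minus strand) and the third that of the Sox2 mRNA (chr2:119464881-119465180, plus strand). Each is written 5′ to 3′, credited to RefSeq, with capitals for matches on either strand to TAATTA (a homeobox core of the kind bound by DLX proteins), AACAAT (a core of the kind bound by SOX proteins), TATAAA or CAGCTG (an E-box).
LOC103691527: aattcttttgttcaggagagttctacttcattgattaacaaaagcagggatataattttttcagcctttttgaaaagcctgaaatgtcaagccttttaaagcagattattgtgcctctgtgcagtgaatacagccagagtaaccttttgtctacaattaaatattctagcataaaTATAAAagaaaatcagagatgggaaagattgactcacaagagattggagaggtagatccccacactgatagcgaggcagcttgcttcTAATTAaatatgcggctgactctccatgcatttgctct
LOC100912227: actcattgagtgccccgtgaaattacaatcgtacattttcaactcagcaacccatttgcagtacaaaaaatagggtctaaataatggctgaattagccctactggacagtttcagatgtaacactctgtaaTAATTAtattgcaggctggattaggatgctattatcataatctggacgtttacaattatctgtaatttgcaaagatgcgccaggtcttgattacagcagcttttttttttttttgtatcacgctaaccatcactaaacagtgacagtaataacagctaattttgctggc
Sox2: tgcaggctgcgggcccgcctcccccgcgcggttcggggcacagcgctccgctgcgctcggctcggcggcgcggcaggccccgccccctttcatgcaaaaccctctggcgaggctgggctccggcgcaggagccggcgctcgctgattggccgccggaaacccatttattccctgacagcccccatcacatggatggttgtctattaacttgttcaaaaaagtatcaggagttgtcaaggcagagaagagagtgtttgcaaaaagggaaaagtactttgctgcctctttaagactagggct
TAATTA stood in the shown windows of both lncRNA genes and not in that of Sox2. TAATTA was held by 5.36% of all 33469 promoter windows from RefSeq, AACAAT by 11.7%, TATAAA by 14.2% and CAGCTG by 15.1%. Of the 12 windows of LOC103691527, 4 held TAATTA, and these 4 are shifted copies of one another. TATAAA stood in the same 4, AACAAT in 2 and CAGCTG in 1. The shown windows of the lncRNA genes had a GC content of 37.0% (LOC103691527) and 36.7% (LOC100912227), below the median of 51.7%, while that of Sox2 had 60.7%. The 12 windows of LOC103691527 ran from 35.3 to 65.3% GC. A match is a description of these letters and not evidence of binding.

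Values were deposited as FPKM, fragments per kb of transcript and per 1000000 fragments. Low FPKM values fell on steps, from which the depth of each column was worked out. The implied depth was highest in hypothalamus column 2, with 31920000 fragments, and lowest in the second liver column, with 3872000. It rests on 84.7 to 92.5% of the low values used lying within 0.15 of a whole fragment. Multiplying each member's FPKM by this depth and by its length less an assumed fragment of 140 bases gave the implied number of fragments behind it, printed as fragments or as FPM, fragments per 1000000. When the transcripts of a locus were added up, 12 of the 13 locus values between 0.5 and 10 fragments came out within 0.15 of a whole number. A count of 0 is read as allowing up to 3 fragments. Intervals below are exact Poisson intervals at 95%, and they and this limit cover counting error only, since fragments without molecular identifiers are not independent molecules.

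The Sox2 locus was high in both hypothalamus columns and low or at 0 elsewhere, apart from adrenal gland column 2. Its summed FPKM was 5.505 in hypothalamus column 1 and 6.56 in column 2, a mean of 6.03 ± 0.749 (SD, n = 2 columns). In adrenal gland it was listed at 0 in column 1 and at 1.10 in column 2. The other 8 columns lay between 0.0193 and 0.245, with liver at 0.0578 and 0.245, left ventricle at 0.143 and 0.131, cortex at 0.0917 and 0.0650 and outer medulla at 0.0280 and 0.0193. No column of another tissue reached either hypothalamus column. In bulk tissue, fewer cells of a type and less RNA per cell cannot be told apart.

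The implied fragments show how thin the evidence outside hypothalamus was. The Sox2 locus had about 775 fragments in hypothalamus column 1 and 1092 in column 2, or 28.2 FPM (95% interval 26.2 to 30.2) and 34.2 FPM (32.2 to 36.3). Adrenal gland column 2 had 93 fragments, 5.30 FPM (4.28 to 6.50). Adrenal gland column 1 had 0, which allows up to 0.222 FPM. In the remaining columns the locus rested on 3 and 5 fragments in liver, 7 in each left ventricle column, 9 and 5 in cortex, and 3 in each outer medulla column. The 5 of cortex column 2 was rounded down from 5.49, the only one of the 13 low values that was not near a whole number. These came to between 0.163 FPM in outer medulla column 2 and 1.29 FPM in liver column 2. The value of liver column 2 had an interval from 0.419 to 3.01. This interval held the values of both left ventricle columns and of cortex column 1. It did not hold those of liver column 1, cortex column 2 or outer medulla, although their own intervals overlapped it. The place of liver column 2 above the other low columns was not tested.

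**Figure D1:**
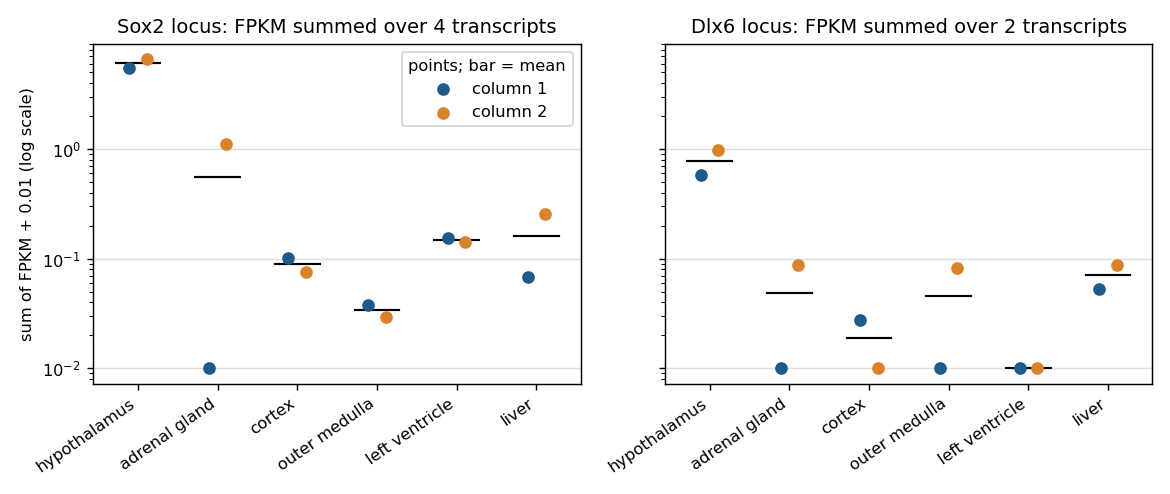
Sum of FPKM over the transcripts of the Sox2 locus (left) and the Dlx6 locus (right) in 6 tissues, with 0.01 added so that a listed 0 can be drawn on the log scale. Points are the 2 columns of each tissue and bars their mean. Both hypothalamus points stand above every other point in each panel, and the adrenal gland points of the Sox2 locus lie far apart, at 0 and 1.10.

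The difference of the Sox2 locus between hypothalamus and each other tissue was tested with limma on log2(sum of FPKM + 0.1), over all 1052 loci that reached a mean of 1 in at least 1 tissue. The 0.1 added makes a fold change smaller where values are low. The fold compares means of logs, so a tissue with a column listed at 0 is lowered and the fold over it is larger. The Sox2 locus reached this minimum through hypothalamus alone. It was called higher in hypothalamus than in each of the other 5 tissues. The smallest difference, to adrenal gland, was 4.14 on the log2 scale (SE 0.96, 17.7-fold), with a Benjamini-Hochberg adjusted p of 0.0067 for the largest of the 5 p-values. Over all loci tested, 7.41% were higher in hypothalamus than in each other tissue by this rule, and 51.1% were higher in some tissue than in each other. In the tests of single pairs of tissues the log2 difference was 5.63 to outer medulla, 5.10 to cortex, 4.71 to liver and 4.69 to left ventricle (SE 0.96 each). The adjusted p in these 4 pairs lay between 0.0013 for outer medulla and 0.0042 for left ventricle, and that for adrenal gland was 0.0092. The share of all loci called higher in hypothalamus was 10.5% against adrenal gland, 16.1% against outer medulla, 17.0% against cortex, 18.9% against liver and 14.4% against left ventricle. The adrenal gland columns set the size of the smallest difference. By mean summed FPKM, 6.03 in hypothalamus and 0.548 in adrenal gland, the ratio was smaller than 17.7-fold. Without adrenal gland column 1 it was 2.35 (5.11-fold), and without adrenal gland column 2 the next tissue was left ventricle at 4.69 (25.8-fold). With no minimum, over 1596 loci, the adjusted p was 0.0087, and with each of the 12 columns left out in turn it was at most 0.035 (limma). With a pseudocount of 0.01 in place of 0.1 the call was lost (log2 difference 5.36 to left ventricle, adjusted p = 0.061, limma).

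By mean summed FPKM the order of the tissues for the Sox2 locus was hypothalamus, adrenal gland (0.548), liver (0.151), left ventricle (0.137), cortex (0.0784) and outer medulla (0.0236). Below hypothalamus this order did not hold against the spread between columns. Of the 10 pairs among the other 5 tissues, 0 passed at an adjusted p below 0.05 and 0 at an unadjusted p below 0.05 (limma). The lowest was adrenal gland against outer medulla, with an adjusted p of 0.26. The 2 adrenal gland columns, at 0 and 1.10, lay on both sides of every other tissue in this part of the order. Their spread also enters the SE of every pair, because limma pooled the spread over all tissues for each locus. With adrenal gland column 2 and hypothalamus column 1 both left out, the SE against left ventricle was 0.47 and the difference 4.82 (adjusted p = 0.0012).

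**Figure D2:**
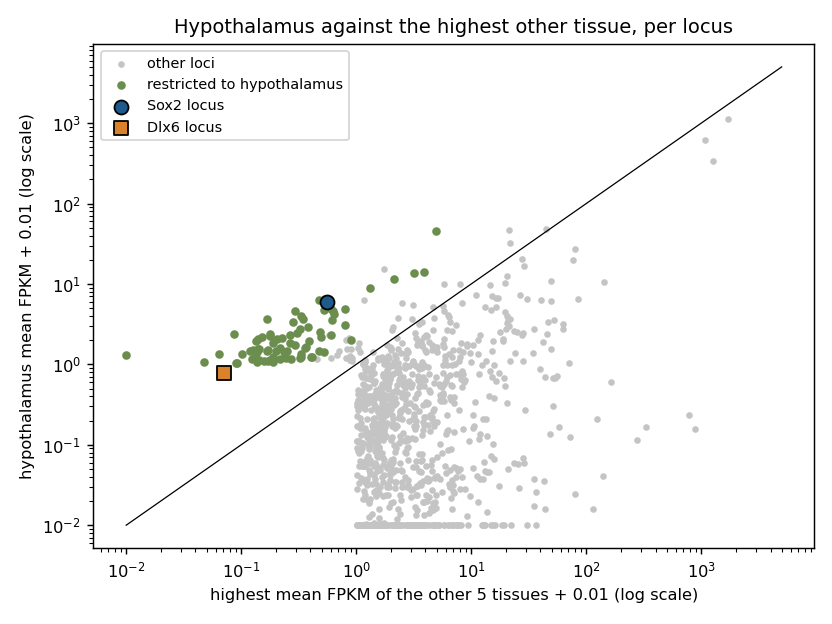
Mean summed FPKM in hypothalamus (vertical, plus 0.01, log scale) against the highest mean of the other 5 tissues (horizontal, plus 0.01, log scale), for the 1052 loci tested and the Dlx6 locus. Green points are the 78 loci higher in hypothalamus than in each other tissue. The Sox2 locus lies among the upper green points and the Dlx6 locus below a hypothalamus mean of 1.

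Among the 78 loci called higher in hypothalamus than in each other tissue, the Sox2 locus had the 8th highest mean in hypothalamus and the 3rd largest ratio to the next tissue. The median of those 78 loci was 1.80 FPKM in hypothalamus and 6.89-fold over the next tissue. The ratio of the Sox2 locus, and so its rank, depends on adrenal gland column 1, listed at 0, without which the ratio was 5.11-fold. The tissue specificity index tau of the Sox2 locus, which runs from 0 for an even level to 1 for a single tissue, was 0.917 on log2(FPKM + 1), against a median of 0.799 over the loci tested. That of the Dlx6 locus was 0.951, with the reserve that all its values outside hypothalamus rest on 5 fragments or fewer. Without the log, tau was 0.969 for the Sox2 locus and 0.962 for the Dlx6 locus, against a median of 0.878. The order of the 2 loci by tau thus depends on the scale.

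The 4 Sox2 locus transcripts were unequal in level. TCONS_00055701 had an FPKM of 4.04 in column 1 and 4.41 in column 2 of hypothalamus. It was listed at 0 in column 1 and 0.891 in column 2 of adrenal gland, and lay between 0 and 0.176 in the other 8 columns. TCONS_00055713 had 0.779 and 0.915 in hypothalamus, and its highest value elsewhere was 0.126, in adrenal gland column 2. TCONS_00055705 had 0.571 and 0.813 in hypothalamus, and its highest value elsewhere was 0.0789, again in adrenal gland column 2. For these 3 transcripts both hypothalamus columns stood well clear of all 10 others.

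TCONS_00055702 was the lowest and least even of the 4. It had 0.115 and 0.423 in hypothalamus, so column 2 was 3.68-fold over column 1, against 1.09-fold for TCONS_00055701, 1.18-fold for TCONS_00055713 and 1.42-fold for TCONS_00055705. These values stood for about 13.6 and 58.0 fragments. Its highest value outside hypothalamus was 0.0578 in liver column 1, about 3 fragments, and it was under 0.5 fragments in the other 9 columns. In adrenal gland column 2, where the other 3 transcripts were present, it stood at 2.6e-05 FPKM.

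TCONS_00055701 took 73.4% of the summed FPKM of the locus in hypothalamus column 1 and 67.2% in column 2. TCONS_00055713 took 14.1 and 13.9%, TCONS_00055705 took 10.4 and 12.4%, and TCONS_00055702 took 2.08 and 6.44%. In adrenal gland column 2, TCONS_00055701 took 81.3%, TCONS_00055713 took 11.5% and TCONS_00055705 took 7.20%. The shares in these 3 columns thus kept the same order. In the other columns the 3 to 9 fragments of the locus were too few to give shares. FPKM is per length, and since TCONS_00055705 and TCONS_00055713 are the longest, the implied fragments were shared more evenly. In hypothalamus column 1 they stood at 443.8 for TCONS_00055701, 182.8 for TCONS_00055713, 134.6 for TCONS_00055705 and 13.6 for TCONS_00055702. How fragments in shared exons were divided among isoforms was set by the authors' estimate, and its error is not given. All 4 overlap exons of Sox2, so fragments of the Sox2 mRNA may be included, and the part they play was not tested.

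**Figure D3:**
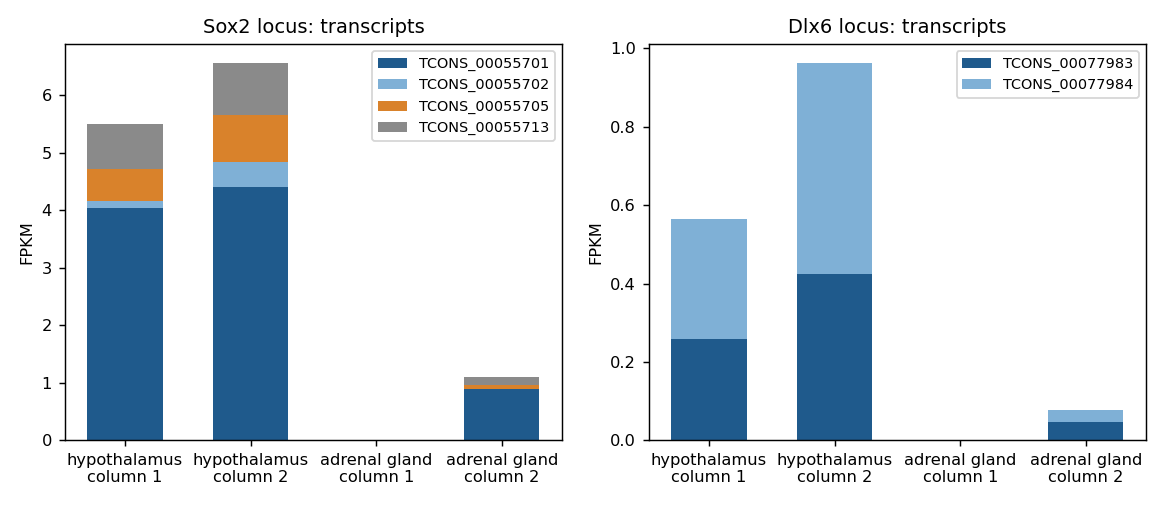
FPKM of each transcript, stacked, at the Sox2 locus (left) and the Dlx6 locus (right), in the 2 hypothalamus and the 2 adrenal gland columns. TCONS_00055701 makes up most of the Sox2 locus, the 2 Dlx6 locus transcripts are near equal in hypothalamus, and both loci are listed at 0 in adrenal gland column 1.

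Of the 6 transcripts only TCONS_00055701 reached a mean of 1 FPKM in a tissue, and it did so through hypothalamus alone. In the limma fit over 1269 transcripts it was higher in hypothalamus than in each other tissue. The smallest log2 difference was 3.78 (SE 0.94, 13.7-fold, to adrenal gland), with an adjusted p of 0.011, and 5.75% of the transcripts tested were called in this direction, of 45.7% called for some tissue. Against adrenal gland alone the adjusted p was 0.017, with 8.35% of transcripts called higher in hypothalamus. Against the other 4 tissues alone, where 11.7 to 14.9% of transcripts were called, the log2 difference ran from 4.40 (left ventricle) to 5.34 (outer medulla). The call was lost without hypothalamus column 2 (log2 difference 3.72, adjusted p = 0.051, limma) and with a pseudocount of 0.01 (5.21 to left ventricle, adjusted p = 0.107). Without adrenal gland column 1 the difference was 2.13 (4.36-fold), and without adrenal gland column 2 it was 4.40 (21.1-fold, to left ventricle). By mean FPKM, 4.23 in hypothalamus and 0.445 in adrenal gland, the ratio was smaller than 13.7-fold. With the minimum lowered to 0.5, TCONS_00055705 (log2 difference 2.55, SE 0.33, adjusted p = 4.3e-04, limma) and TCONS_00055713 (2.65, SE 0.42, adjusted p = 0.0013) were called as well, both against adrenal gland as the next tissue and both reaching the minimum through hypothalamus alone, as were 8.17% of 1812 transcripts. With no minimum, 2392 transcripts were tested, and all 6 members were called higher in hypothalamus than in each other tissue. These 6 lie at the Sox2 and Dlx6 loci only and are not 6 independent results. The adjusted p then ran from 6.7e-04 for TCONS_00055705 to 0.027 for TCONS_00055702 (limma), and the share called over all transcripts was 7.40%. Both hypothalamus columns stood above all 10 other columns for each of the 6 members, as they did for 9.78% of all transcripts with values.

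The Dlx6 locus was also highest in hypothalamus, at a far lower level. Its summed FPKM was 0.565 in hypothalamus column 1 and 0.963 in column 2, a mean of 0.764 ± 0.282 (SD, n = 2 columns). It was listed at 0 in adrenal gland column 1 and at 0.0766 in column 2. Outer medulla had 0 in column 1 and 0.0713 in column 2, while the cortex columns held 0.0177 and 0. Left ventricle had 1.0e-05 in column 1 and 0 in column 2, and liver had 0.0431 and 0.0781. Both hypothalamus columns lay above all others, and no other tissue exceeded 0.0781.

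These values stood for 55 and 109 fragments in hypothalamus, or 2 FPM (95% interval 1.51 to 2.60) and 3.41 FPM (2.80 to 4.12). The 2 intervals do not overlap, so the hypothalamus columns differed by more than counting error. The 2 hypothalamus intervals of the Sox2 locus, given above, do not overlap either. Outside hypothalamus the locus rested on 5 fragments in adrenal gland column 2, 5 in outer medulla column 2, 2 in liver column 1, 1 in liver column 2, 1 in cortex column 1 and 0 in the other 5 columns. In liver column 2, the least deep, the 1 fragment had an interval of up to 1.44 FPM. The order of the 5 other tissues could not be read at this depth.

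With a hypothalamus mean below 1 FPKM the Dlx6 locus was not tested under the main minimum, and its log2 difference to the next tissue, liver, was 2.40. With the minimum lowered to 0.5, which it reached through hypothalamus alone, it was called higher in hypothalamus than in each other tissue (SE 0.39, 5.27-fold, adjusted p = 0.0012, limma), as were 9.55% of 1340 loci. With no minimum the adjusted p was 0.0017 and the share 9.09% of 1596 loci. In that fit its log2 difference from hypothalamus was 2.66 for adrenal gland, 2.68 for outer medulla, 2.95 for cortex and 3.07 for left ventricle. These differences depend on the pseudocount, which exceeds every value of the locus outside hypothalamus, and they came to 3.45 at 0.01 and 0.73 at 1 for the next tissue.

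The 2 Dlx6 locus transcripts were close to each other in level. The antisense transcript TCONS_00077984 had an FPKM of 0.307 and 0.538 in hypothalamus, and TCONS_00077983, with no reference gene, had 0.259 and 0.426. Their shares of the locus hardly differed between the columns, at 54.2 and 55.8% for TCONS_00077984 and 45.8 and 44.2% for TCONS_00077983. Outside hypothalamus they parted, with so few fragments that no difference can be drawn from it. TCONS_00077984 had 0.0781 in liver column 2 (1 fragment), and TCONS_00077983 had 0.0713 in outer medulla column 2 (5 fragments). The sources used here do not say whether counting used strand, so reads of Dlx6 mRNA may enter the value of TCONS_00077984. Their part in it was not tested.

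Set against each other, the Sox2 locus exceeded the Dlx6 locus 9.74-fold in hypothalamus column 1 and 6.81-fold in column 2, in summed FPKM. Among 1312 loci above 0 in hypothalamus the Sox2 locus ranked 36th by mean summed FPKM and the Dlx6 locus 315th. Between the hypothalamus columns the Sox2 locus was 1.19-fold and the Dlx6 locus 1.70-fold higher in column 2.

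Adrenal gland column 2 was the only column outside hypothalamus with more than 9 fragments of either locus. The Sox2 locus stood there at 18.2% of its hypothalamus mean and the Dlx6 locus at 10.02%, while both were at 0 in adrenal gland column 1. By transcript the share in adrenal gland column 2 was 21.1% for TCONS_00055701, 14.9% for TCONS_00055713, 11.4% for TCONS_00055705, 13.7% for TCONS_00077983 and 7.07% for TCONS_00077984. For comparison, 90 other transcripts were at FPKM 1 or more in hypothalamus and over 5-fold above cortex, outer medulla, left ventricle and liver. Adrenal gland set no limit in this choice, and some of the 90 were higher in adrenal gland than in hypothalamus, which raises the shares below. Relative to its hypothalamus mean, the median transcript of these 90 was at 21.1% in adrenal gland column 2 (quartiles 13.5 and 33.0%) and at 4.15% in column 1 (0 and 20.8%). Of these, 28 were at 0 in adrenal gland column 1, as the 2 loci were, and their median in column 2 was 11.7% (quartiles 7.80 and 20.1%). The shares of 3 of the 6 members lay between these last quartiles. In the other direction, 129 adrenal-high transcripts stood in hypothalamus at a median of 12.1% of their adrenal mean in column 1 and 5.5% in column 2. Whether the adrenal value of the Sox2 locus comes from adrenal cells was not tested.

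**Figure D4:**
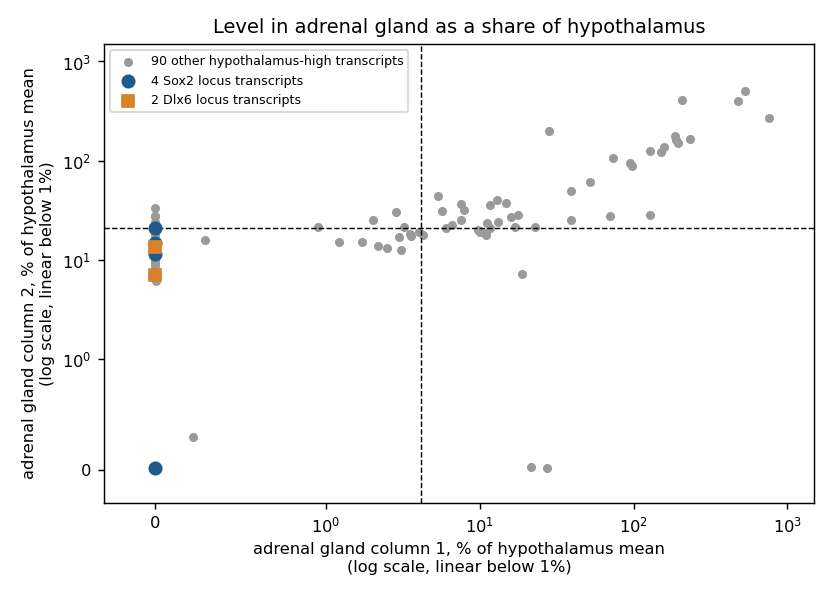
Level of each transcript in adrenal gland column 2 (vertical) against column 1 (horizontal), as a percentage of its hypothalamus mean, on log scales that are linear below 1%. Grey points are the 90 other hypothalamus-high transcripts, with their medians of 4.15 and 21.1% as dashed lines. They were chosen without a limit in adrenal gland, and some were higher there than in hypothalamus. All 6 members lie at 0 on the horizontal axis, and 5 of them between 7.07 and 21.1% on the vertical.

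The loci most like the Sox2 locus were sought by Pearson's r on log2(sum of FPKM + 0.1) across the 12 columns. The points share 6 tissues and the depth of their columns, so r is a description and has no p. The 5 closest were XLOC_058323 (named RGD1566251, r = 0.985), XLOC_015972 (no name, r = 0.984), XLOC_021891 (ENSRNOG00000050046, r = 0.976), XLOC_034290 (Mir124-2, r = 0.974) and XLOC_044129 (Mir129-2, r = 0.971). Mir124-2 is a gene for miR-124, a microRNA abundant in neurons, and Mir129-2 one for miR-129, which is also abundant in brain. All 5 were higher in adrenal gland column 2 than in column 1. Both adrenal gland columns entered r, so loci chosen by it tend to share this pattern. Of the 90 other hypothalamus-high transcripts, 65 were higher in adrenal gland column 2 than in column 1. XLOC_015972, for example, had 5.86 and 7.15 in hypothalamus, against 0 and 1.05 in adrenal gland. XLOC_034290 had 1.85 and 1.98 in hypothalamus, against 0 and 0.249 in adrenal gland.

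The 5 closest to the Dlx6 locus were XLOC_064083 (r = 0.971), XLOC_011738 (r = 0.964), XLOC_034290 (Mir124-2, r = 0.960), XLOC_008896 (ENSRNOG00000033800, r = 0.957) and XLOC_028687 (r = 0.955). Mir124-2 was thus near both loci. XLOC_064083, the closest, had 1.58 and 1.54 in hypothalamus and at most 0.234 in any other column. The Sox2 and Dlx6 loci correlated with each other at r = 0.918. Of the 1051 loci compared, 42 reached 0.9 with the Sox2 locus and 41 reached it with the Dlx6 locus.

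**Figure D5:**
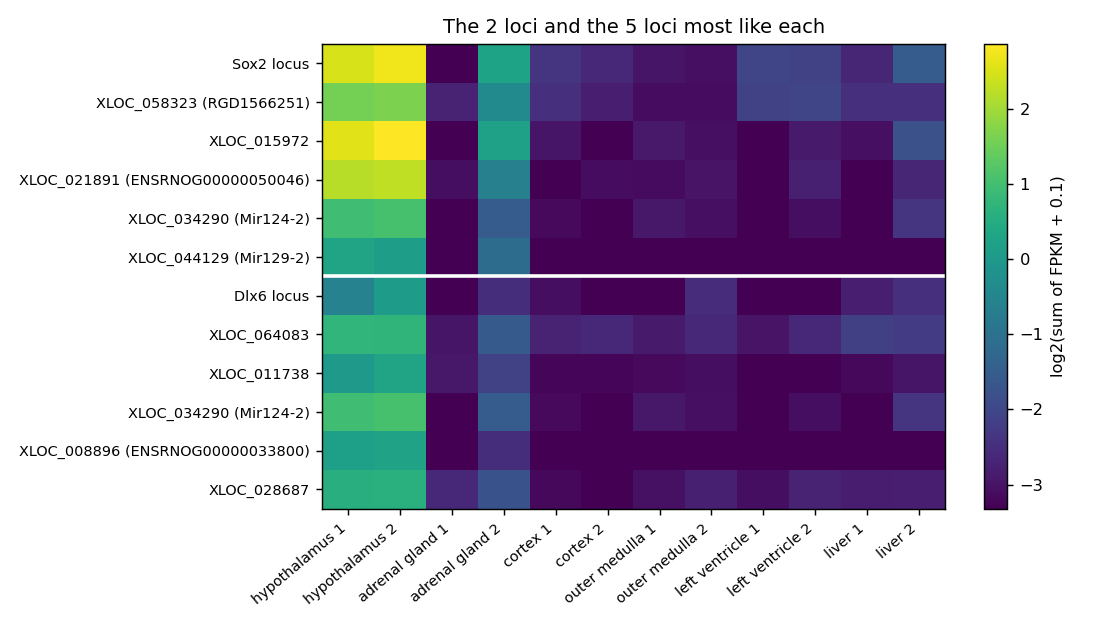
log2(sum of FPKM + 0.1) in 12 columns for the Sox2 locus and the 5 loci most like it (above the white line) and for the Dlx6 locus and its 5 (below). Every row is brightest in the hypothalamus columns, and adrenal gland column 2 is brighter than adrenal gland column 1 in each. The rows were chosen by r over these same columns, so a shared pattern is partly built in.

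Other genes of neural development were looked for in a list of 64 names, among them further Sox and Dlx genes. The table held 4 of them, and apart from Sox2 and Dlx6 these were Snhg11 and Emx2. The transcript at Snhg11, a lncRNA host gene of small nucleolar RNA that is abundant in brain, was TCONS_00072731. Its FPKM was 3.48 and 8.22 in hypothalamus, with 2.76 and 2.23 in outer medulla and at most 1.76 in any other column. It was not called for any single tissue (log2 difference 1.08 between hypothalamus and outer medulla, adjusted p = 0.63, limma). TCONS_00013941, antisense to Emx2, a homeobox gene of cerebral cortex and the urogenital system, had 0.0173 and 0 in hypothalamus, while the cortex columns stood at 2.9e-04 and 0.520 and those of outer medulla at 0.0035 and 0.406. In cortex and outer medulla column 1 thus lay below the higher hypothalamus value and column 2 above it. The transcript was below the minimum and was not tested. Of the 7 transcripts at the 4 named genes, 2 were tested and 1, TCONS_00055701, was called, against 45.7% of all transcripts tested. No transcript was named for any of the 9 neuron, 5 oligodendrocyte or 4 astrocyte markers looked for, so the hypothalamus label could not be checked by them. The Cyp11b3 transcript TCONS_00098844, at an adrenal steroid hydroxylase gene, stood at 5.89 and 1.21 FPKM in the hypothalamus columns, against 60.5 and 44.4 in those of adrenal gland. TCONS_00067610, at the renal tubule gene Slc12a1, had 12.2 and 14.7 FPKM in cortex and 36.5 and 36.6 in outer medulla. It was lower in every column of the other tissues, and at 0 in both hypothalamus columns. From which organ the cortex sample came was not tested.

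None of the 4 nearest listed neighbours, 1 on each side of each locus, was highest in hypothalamus. Over all loci with values, 11.5% had both hypothalamus columns above all 10 others, so this says little about these regions. After the Sox2 locus, XLOC_037041 had 0.0131 and 0.0133 FPKM in hypothalamus, against 0.796 and 0.651 in cortex. Before the Dlx6 locus, XLOC_045848 (named Samd9l) had 1.14 and 2.79 in hypothalamus, against 19.4 and 18.3 in outer medulla. On the far sides, XLOC_037030 had 0.416 and 0 in hypothalamus, against 0.634 and 1.503 in cortex and 1.14 and 0.989 in left ventricle, and XLOC_045868 was at 0 in both hypothalamus columns, against 2.36 and 1.74 in liver.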

How the data were processed

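The members and gene lists were chosen with earlier results of these data known. TRIzol extraction of total RNA and the TruSeq Stranded RNA LT kit are named in the labels' protocols. The submitters' processing notes name rn5 and bcl2fastq 2.15.0. The authors deposited FPKM values for transcripts that they had selected as lncRNAs. Aligner, assembler, annotation, strand setting and selection: not given in the sources used here. Per the file headers, the table gives transcript and locus identifiers, class codes, lengths and 12 value columns. Of 2458 transcripts, 3 without values were left out.

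Depth was computed from steps between low FPKM values, using transcripts longer than 500 bases with no other at the locus, and an assumed mean fragment of 140 bases. limma 3.58.1 (R 4.3.3, eBayes with trend) was fitted to log2(FPKM + 0.1) in 12 columns by tissue, for transcripts, or sums of FPKM per locus, at a mean of 1 or more in at least 1 tissue. For each, the highest tissue was compared with each of the other 5, and the largest p was adjusted by Benjamini-Hochberg at 0.05 over all features tested. Single pairs of tissues were adjusted within each pair. Features below the minimum have values and no test. No count test was run, since no counts were given. The procedure was also run on simulated data, with independent normal errors on the log scale and no lower limit to the values. The outcome is not given here, and such data do not cover low counts or columns that depend on each other. Transcripts named were all members, the 5 loci most like each locus, and all found of 2 fixed lists (neural genes and cell type markers). Of the marker lists, hepatocyte, cardiomyocyte and renal tubule genes were found as transcripts at Fga, Afp, Myl1 and Slc12a1, of which 1 of 2 hepatocyte transcripts (Afp, for liver) and 0 of 1 in each other list were called for a single tissue, against 45.7% of all transcripts tested. The Fga transcript was at 0 in both liver columns and highest in adrenal gland (1.42 and 1.16 FPKM). Of 10 adrenal markers 1, Cyp11b3, was found, and it was called for adrenal gland. Promoter windows and names came from RefSeq (GRCr8). The other software was matplotlib 3.10.9, SciPy 1.17.1, NumPy 2.4.6, pandas 2.3.3 and Python 3.11.15. The alternatives were pseudocounts, minimums, rescaling, no trend, a block for the column number, and columns left out.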

Additional observations from a re-analysis of the deposited data

How the results depend on the processing

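The direction of each difference between hypothalamus and the next tissue was the same under every alternative that kept hypothalamus columns. For the Sox2 locus the log2 difference was 5.36 to left ventricle with a pseudocount of 0.01 (adjusted p = 0.061, limma) and 2.28 to adrenal gland with 1. To adrenal gland it was 5.06 with tissues rescaled and 4.98 with columns rescaled. On implied FPM (fragments per 1000000) it was 5.30 to left ventricle, an alternative chosen after seeing the data and given with no test. For the Dlx6 locus it was 3.45 with a pseudocount of 0.01, 0.73 with 1, 3.17 with tissues rescaled, 3.19 with columns rescaled and 3.14 on implied FPM. With no hypothalamus columns the highest tissue was adrenal gland for the Sox2 locus (0.55 over left ventricle, not tested) and liver for the Dlx6 locus (0.26 over adrenal gland). Leaving out each column in turn gave 2.35 to 4.69 for the Sox2 locus and 2.06 to 2.74 for the Dlx6 locus, with a lone column of a tissue assumed to vary like the others. In the main fit 1 of 1 member transcript tested was called higher in hypothalamus, where 5.75% of all transcripts tested were. With a pseudocount of 0.01 it was 0 of 1 (2.52%), with a minimum of 0.5 3 of 3 (8.17%), with tissues rescaled 3 of 3 (14.1%), with columns rescaled 3 of 3 (13.8%), and with no minimum 6 of 6 (7.40%). It was 0 to 1 of 1 with each column left out (4.43 to 6.16%), and 0 with no hypothalamus columns. Member transcripts of the same locus are not independent of one another. The count of tissue-restricted transcripts over the table, 580, was 308 with a pseudocount of 0.01 and 507 to 609 with each column left out. With the column number as a block (replicate block) it was 578, and the log2 difference was 4.14 for the Sox2 locus and 2.40 for the Dlx6 locus; the labels give these numbers no meaning, and deviations of same-numbered columns correlated between -0.07 and 0.13. The cause of these changes was not tested. Depth limits every value outside hypothalamus, where 9 fragments or fewer lay behind each locus in all columns but adrenal gland column 2.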
